A study of Drosophila melanogaster with 17 samples.

Results

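Nucleosomes wrap DNA, and the linker between neighbours sets how far apart they sit. Micrococcal nuclease (MNase) cuts linkers, so the length of a fragment that holds a given number of nucleosomes follows the nucleosome repeat length, less what the enzyme trimmed from the ends. ISWI is the ATPase of remodelling complexes that space nucleosomes evenly, and linker histone H1 binds the linker and is known to lengthen the repeat.

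The regions described here are 591 windows of 10 kb in which fragments of about tetranucleosome size were longest. They were taken from 11906 windows on the chromosome arms 2L, 2R, 3L, 3R and X of Drosophila melanogaster (release 5 coordinates, dm3, counted from 1). A window needed at least 300 distinct fragments of 500 to 1000 bp, placed by their midpoint, in the high MNase digest read on an Illumina instrument. Of the 11823 windows that met this minimum, the 5% with the highest mean fragment length were kept and are called members; the remaining 11232 are the other windows. The members were thus chosen by the mean lengths of the high digest, which are given as a description without a test.

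The series mapped nucleosome spacing in 2 cell lines, with 7 Illumina and 10 nanopore libraries. BG3-c2 is a neural line of larval origin (L3 central nervous system, per the labels) and Kc is an embryonic line; cells were grown at 26°C and nuclei digested for 20 min at 37°C. BG3-c2 chromatin of a low, a medium and a high digest was read once on each platform, with no RNA interference stated, beside 1 nanopore library of BG3-c2 genomic DNA that was freed of histones and then digested. BG3-c2 cells given double-stranded RNA (dsRNA) against ISWI, 50 µg with harvest on day 6, and BG3-c2 cells given control dsRNA against glutathione S-transferase (GST) each have 2 Illumina libraries of cut-out tetranucleosomal DNA. Untreated BG3-c2 cells, Kc cells with GST dsRNA and Kc cells with H1 dsRNA, harvested on day 6 after a repeated treatment, each have 2 nanopore libraries of total digested DNA. The knockdown acted on whole cell populations and its efficiency was not analysed here. Nothing in the labels says whether replicates came from separate cultures, so their spread may be technical. The labels call the Illumina titration total digested chromatin, while the series' design text describes the Illumina libraries as cut tetranucleosomal bands.

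Depth on the 5 arms ranged from 996612 to 79123616 distinct fragments in the Illumina libraries and from 25152 to 2437227 in the nanopore libraries. GST replicate 2 and ISWI replicate 2 stood apart: only 16.9% and 14.6% of their intervals lay on the 5 arms, against 46.2% and 43.7% in GST and ISWI replicate 1 and 75.5% to 79.3% in the titration. Results of the tests are also given with 1 library left out at a time, but none was computed without both of these libraries. The second replicates of Kc GST and Kc H1 had at most 2 windows with 10 or more usable reads and are left out of the values by window; untreated BG3-c2 replicate 2 had 173 such windows, 14 of them members.

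In the high digest the mean length of a member was 678 ± 14.6 bp (SD over 591 windows), with a median of 673 bp and a range of 669.8 to 762 bp. The other windows averaged 654 ± 8.32 bp (SD over 11232 windows). Most members lay close to the threshold, since 110 of them reached 680 bp, 40 reached 700 bp and 21 reached 720 bp. The 3 windows just inside the threshold were 2R:3380001-3390000, X:21210001-21220000 and 2L:6850001-6860000, with means of 669.82, 669.819 and 669.813 bp. The 3 just outside were 2L:560001-570000, 2R:11890001-11900000 and 3R:20130001-20140000, with 669.813, 669.805 and 669.799 bp. The standard error of a window mean had a median of 1.85 bp among the members, so windows at the threshold could not be ordered.

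The members were divided into 2 forms by how widely the fragment lengths of a window spread in the high digest. Whether the spread falls into 2 separate groups was not tested. A limit of 80 bp on the SD of the lengths, set after the lengths were seen, left 466 members with a compact distribution and 125 with a broad one. Among the other windows 80 had an SD above that limit, and their median SD was 60 bp. In compact members the whole tetranucleosomal peak sat at greater length: in the high digest its maximum was at 679 bp, against 654 bp in the other windows. In broad members the maximum was at 673 bp and a long shoulder was added, so that 15.1% of the fragments of 500 to 1000 bp were 800 bp or longer, against 3.15% in compact members and 1.19% in the other windows. Fragments over 1000 bp made up 1.86% of all high-digest fragments in broad members, 0.200% in compact members and 0.0715% elsewhere. Broad members were also the longest by mean, with 694 ± 23.6 bp against 674 ± 6.11 bp in compact members (SD over windows). The limit was set on these same fragments, so the high-digest contrasts between the forms follow in part from it. In GST replicates 1 and 2 and ISWI replicates 1 and 2 the maximum moved in both forms. It lay 27, 48, 21 and 26 bp above that of other windows in broad members and 15, 17, 15 and 14 bp above in compact members.

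**Figure D1:**
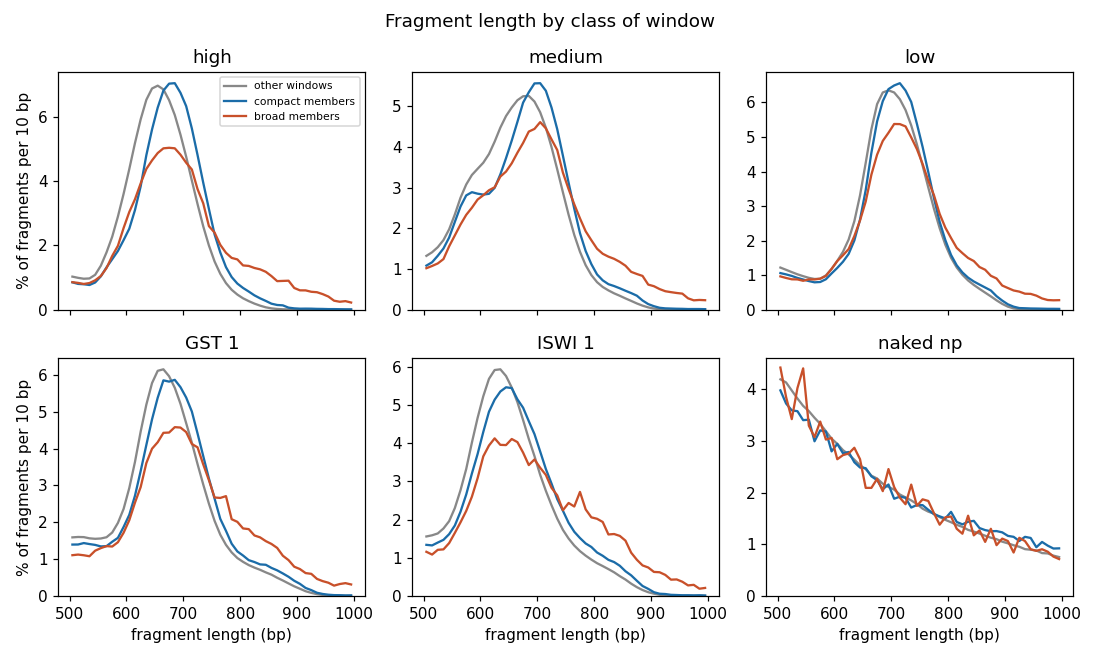
Percent of fragments of 500 to 1000 bp per 10 bp of length (x axis, bp) in the high, medium and low digests, GST replicate 1, ISWI replicate 1 and naked DNA (np, nanopore), with lines for other windows, compact members and broad members. The compact members' peak lies to the right of the other windows' peak in the 5 chromatin panels, the broad members carry a shoulder beyond 800 bp there, and naked DNA declines with no peak.

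The longest member of each arm was broad, and the longest compact member, 3L:2060001-2070000, which lay just under the SD limit and was named after its value was seen, had 748 bp. X:15920001-15930000 had the highest mean, 762 ± 4.93 bp (SE over 432 fragments), and stayed long in all the other Illumina libraries. Its mean was 758 bp in the low and 769 bp in the medium digest, 751 and 791 bp in GST replicates 1 and 2, and 759 and 724 bp in ISWI replicates 1 and 2, with only 14 and 10 fragments in the second replicates. The window 3L:7670001-7680000 reached 761 bp in the high digest, 762 bp in both the low and the medium digest, 775 bp in GST replicate 1 and 766 bp in ISWI replicate 1. On the left arm of chromosome 2, 2L:22990001-23000000 had 760 bp in the high digest, 768 bp in the low and 759 bp in the medium digest. These 3 windows lay near 750 bp, which is the mean of an even spread of lengths from 500 to 1000 bp. The SDs of their lengths in the high digest were 103, 104 and 111 bp, and whether the lengths were evenly spread was not tested. The longest member of 2R, 2R:15620001-15630000, had 736 bp, and that of 3R, 3R:17130001-17140000, had 722 bp.

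Members occurred on all arms, at shares between 4.02% of the windows on 3R and 5.80% on 2R. The X held 126 members, of which 46 were broad, so that broad members made up 2.11% of its windows against 1.06% over the 5 arms and 0.430% on 3R. Members were more frequent towards the arm ends with the arms pooled. When each arm was divided into 10 equal parts from the telomere, 8.34% of the windows were members in part 1, 2.46% in part 8 and 8.71% in part 10. Arms differed in this: part 1 held 3.90% on 2L, below the 4.79% of that whole arm, and 5.36% on 3R, against 13.0% on 2R. Within 1 Mb of the centromere end 55 of 488 windows (11.3%) were members, against 533 of 11290 (4.72%) between the arm ends. The 100 kb next to the telomere end held 3 members in 45 windows, all broad.

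Member windows lay near each other. They formed 471 runs of adjacent windows, of which 382 were single windows and 89 held 2 or more, with 209 members (35.4%) in the latter. Of the 1166 windows next to a member 240 were members themselves (20.6%), against the 5% that the rule takes, and 365 members (61.8%) had another within 50 kb. Length in the libraries outside the rule declined with distance from a member. In the medium digest members were on average 17.2 bp longer than the median window, and the windows 10 kb away, members included, 7.0 bp, those at 20 kb 3.81 bp and those at 50 kb 1.85 bp. For broad members the mean was 32.4 bp at the member and 10.7 bp at 10 kb, and for compact members 13.2 and 6.06 bp. In ISWI replicate 1 the windows at 10 kb stood at 12.3 bp for broad and 7.08 bp for compact members. With member windows left out of the neighbours, which removes the windows that were longest in the high digest, the medium-digest mean at 10 kb was 2.73 bp, with 3.35 bp for compact and 0.10 bp for broad members.

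**Figure D2:**
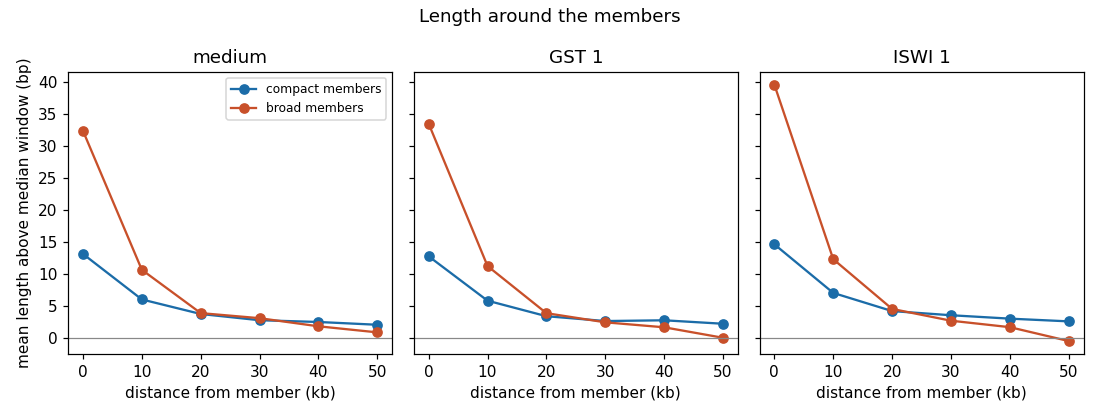
Mean fragment length above the library's median window (y axis, bp) against distance from a member (x axis, kb) in the medium digest, GST replicate 1 and ISWI replicate 1; distance 0 is the members, other points are all windows at that distance, members included. Length declines with distance for both forms, from 32.4 to 10.7 bp at 10 kb for broad members in the medium digest and from 13.2 to 6.06 bp for compact ones.

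The longest run, 2L:4480001-4560000, held 8 windows, of which 6 were compact and 2 broad. The broad pair, 2L:4530001-4540000 and 2L:4540001-4550000, had 715 and 718 bp in the high digest, and the other 6 lay between 674 and 679 bp. In a limma fit over the 4 tetranucleosomal libraries, described below, 7 of the 8 windows were longer than the median window and 2L:4500001-4510000 was not (8.90 ± 4.02 bp, SE, adjusted p = 0.128). The 3 next longest runs tied at 5 windows and are all given. In 3L:11940001-11990000 the length peaked in the third window, 3L:11960001-11970000, at 752 bp in the high digest, 747 bp in the medium digest, 750 and 765 bp in the GST replicates and 745 and 750 bp in the ISWI replicates. The last 2 windows of that run did not differ from the median tested window in that fit, at 5.28 ± 3.75 and -1.99 ± 5.29 bp (SE; adjusted p = 0.316 and 0.803). Against the median of all windows usable in each library, whether or not in the fit, they were 8.45 and 1.18 bp longer.

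All 5 windows of the run 2R:15610001-15660000 were broad. Its 3 central windows held 15, 36 and 14 naked DNA reads, against a median of 209 reads in the other windows, and 2, 6 and 4 reads in untreated BG3-c2 replicate 1, where the median was 43. Their Illumina counts were not low: the low digest had 5367, 5341 and 4932 fragments of 500 to 1000 bp there, against a median of 2959. In the run X:21760001-21810000 the Kc libraries stood out, since Kc GST replicate 1 had 774 reads in the first window and 557 in the second, against a median of 103 in the other windows. The part of copy number and of repeated sequence in the members' lengths was not tested.

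The members were longer than the other windows in every Illumina library that the rule did not use. In the medium digest members averaged 677 ± 14.8 bp and other windows 659 ± 6.38 bp (SD over windows), a difference of 17.8 bp. In the low digest the values were 707 ± 10.6 and 697 ± 4.94 bp, a difference of 10.2 bp. Of the members 590 of 591 were above the other windows' median in the medium digest and 565 in the low digest, and 65.3% and 43.5% were among the top 5% of those libraries. These 2 digests are single libraries of the titration that chose the members, and no test is drawn from them.

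In the 4 tetranucleosomal libraries the excess was of like size. Members averaged 685 ± 16.5 bp in GST replicate 1, 685 ± 23.1 bp in GST replicate 2, 667 ± 19.6 bp in ISWI replicate 1 and 657 ± 25.4 bp in ISWI replicate 2 (SD over the 591, 531, 590 and 505 members with at least 30 fragments). The other windows averaged 667, 666, 647 and 638 bp. The member excess was thus 18.1, 19.3, 20.6 and 18.0 bp, with a mean of 19.0 ± 1.22 bp (SD, n = 4 libraries). It was positive in 4 of 4 libraries, for which an exact two-sided sign-flip permutation test gives p = 0.13, the smallest value 4 libraries allow (adjusted p = 0.175 over the 7 tests made). By form, compact members were 13.7, 15.4, 15.4 and 12.4 bp longer than other windows and broad members 34.4, 39.7, 40.3 and 50.1 bp, in the same order of libraries. Members were also better covered, and coverage moved with length: in GST replicate 1 the Pearson correlation across 11821 windows between mean length and log2 fragment number was 0.469, with both measures from the same fragments. With the other windows weighted to the members' coverage in each library, in 10 classes, the mean excess was 13.5 bp.

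**Figure D3:**
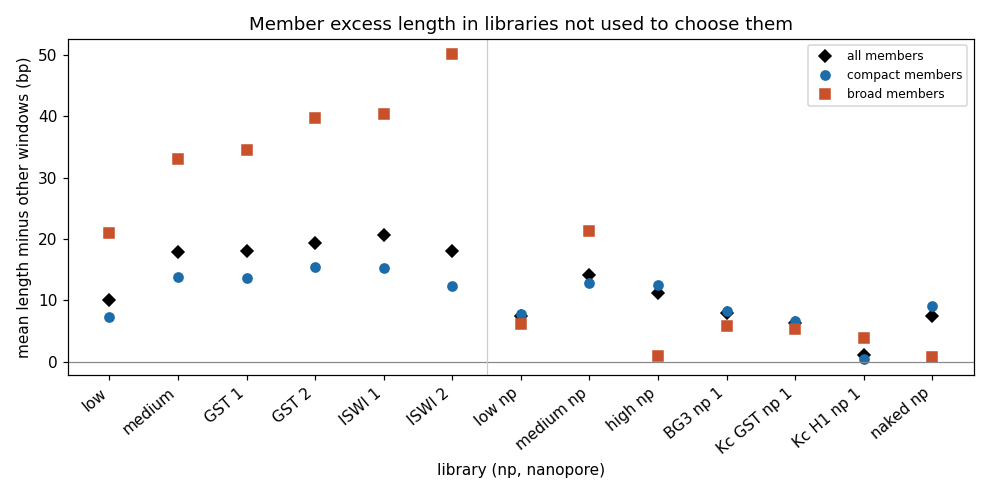
Mean fragment length of all members, compact members and broad members minus that of other windows (y axis, bp) in the libraries not used to choose them (x axis; np, nanopore; the grey line divides the platforms). All members lie between 10.2 and 20.6 bp in the 6 Illumina libraries and between 1.08 and 14.2 bp in the nanopore libraries shown, which leave out the shallow second replicates and where broad members do not stand above compact ones except in the medium digest and Kc H1.

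Window by window, limma was fitted to the mean lengths of the 4 tetranucleosomal libraries, each centred on the median of the windows tested. The fit covered 6284 windows with at least 30 fragments in each library, among them 503 of the 591 members (430 compact and 73 broad). At a Benjamini-Hochberg adjusted p below 0.05, 534 windows were longer than the median window (8.5% of those tested) and 172 were shorter (2.74%). Of the tested members 180 were longer (35.8%), 1 was shorter, and 448 had a positive difference; their median difference was 9.89 bp, against -0.49 bp over all windows tested. The share was 127 of 430 among compact members and 53 of 73 among broad members. The counts rest on few libraries. Without ISWI replicate 2, 71 of 7775 windows including 61 of 531 members were longer. Without GST replicate 2 the counts were 262 of 6627 and 120 of 505. Of 6284 windows including 503 members, 331 and 125 were longer without ISWI replicate 1, and 376 and 140 without GST replicate 1. In each of these fits 0 windows were called shorter, so the 172 shorter windows and the single shorter member rest on all 4 libraries together. With at least 100 fragments in each of the 4 libraries, 163 of 653 windows including 8 of 160 members were shorter.

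The members with the highest mean over these 4 libraries were X:14170001-14180000, X:22010001-22020000 and 2R:15630001-15640000, at 106 ± 17.2, 99.5 ± 15.6 and 95.8 ± 14.8 bp above the median window of the fit (SE; adjusted p = 0.00337, 0.00261 and 0.00235). X:14170001-14180000 had means of 759 and 778 bp in the GST replicates and 757 and 763 bp in the ISWI replicates, and 758 bp in the high digest. X:22010001-22020000 had a far higher mean in the 4 tetranucleosomal libraries than in the titration. It had 751, 772, 745 and 765 bp in GST replicates 1 and 2 and ISWI replicates 1 and 2, but 670, 660 and 702 bp in the high, medium and low digests. The latter are 14.9 bp above, 0.06 bp below and 4.85 bp above the median of all windows of those digests. The 4 tetranucleosomal means of this window rest on 250, 103, 154 and 62 fragments, with SEs of 3.73, 1.91, 5.61 and 4.52 bp. Part of the window was long in the titration too. X:22013001-22014000 and X:22014001-22015000 had 775 and 759 bp in the high digest, over 31 and 50 fragments. In the medium digest they had 775 and 761 bp, over only 19 and 43 fragments. The other stretches of 1 kb in this window lay between 615 and 663 bp in these digests. At the low end, X:320001-330000, the member called shorter, was at -18.2 ± 5.33 bp in the fit (SE; adjusted p = 0.0470). Its means were 662 and 641 bp in the GST and 642 and 617 bp in the ISWI replicates. X:21620001-21630000 and 3R:27340001-27350000 followed at -14.5 ± 5.86 and -13.1 ± 4.84 bp and did not pass the threshold (adjusted p = 0.0977 and 0.0767). These 3 were compact members with 670 to 674 bp in the high digest. Across the 503 members usable in the 6 Illumina libraries outside the rule, 270 were above the median window in all 6, against 466 of 5781 other windows.

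The ISWI libraries had shorter fragments than the GST libraries in members and other windows alike, and a change in the member excess was not detected. The excess was 18.7 ± 0.840 bp in the GST libraries and 19.3 ± 1.84 bp in the ISWI libraries (SD, n = 2 each), a difference of 0.62 bp that was smaller than the spread between replicates (exact two-sided permutation test, p = 1; the smallest p that 2 against 2 libraries allow is 0.33). The tetranucleosomal maximum of the members lay at 678 and 683 bp in the GST replicates and at 646 and 644 bp in the ISWI replicates, and that of the other windows at 662 and 665 bp against 631 and 629 bp. The GST and ISWI values did not overlap in either set of windows. Because the tetranucleosomal band was cut out before sequencing, a shift of a whole library and the position of its cut cannot be told apart here. With each library centred on its median window, limma called 0 of 6284 windows changed (0%) and 0 of 503 members; at an unadjusted p below 0.05 it found 211 windows and 10 members. Without centring, 2262 of 6284 windows including 252 of 503 members were shorter after ISWI dsRNA. The median change was -24.5 bp over all windows and -24.7 bp over the members. Without GST replicate 1, 121 centred windows including 6 members were called.

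The position of the peak, and not only the mean, differed. Members had their tetranucleosomal maximum 16, 18, 15 and 15 bp above that of other windows in GST replicates 1 and 2 and ISWI replicates 1 and 2, a mean of 16.0 ± 1.41 bp (SD, n = 4; exact sign-flip permutation p = 0.13, adjusted p = 0.175). In the medium digest the maximum moved from 679 to 700 bp and in the low digest from 696 to 710 bp. The mononucleosomal maximum of the tetranucleosomal libraries was at 170, 166, 168 and 164 bp in members and at 168, 165, 166 and 163 bp in other windows, so the difference there was 1 to 2 bp. The share of fragments of 800 to 1000 bp among those of 500 to 1000 bp was 9.97%, 15.3%, 8.64% and 7.29% in members and 6.48%, 9.30%, 4.85% and 2.93% in other windows. The excess was 4.40 ± 1.11 percentage points (SD, n = 4; exact sign-flip permutation p = 0.13, adjusted p = 0.175). It was 2.63 points for compact and 13.9 points for broad members.

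Members were covered more deeply in the tetranucleosomal libraries, mainly in the compact form. The median member held 1105 fragments of any length in GST replicate 1, 193 in GST replicate 2, 694 in ISWI replicate 1 and 131 in ISWI replicate 2, against 611, 102, 369 and 67 in the median other window. Averaged over windows the log2 difference was 0.73, 0.81, 0.78 and 0.86, with a mean of 0.80 ± 0.05 (SD, n = 4 libraries; exact sign-flip permutation p = 0.13, adjusted p = 0.175). Compact members were 1.92 to 2.13 times as deeply covered as other windows by the median, and broad members 0.881 to 0.955 times. With fragments of 500 to 1000 bp only, broad members had log2 differences of 0.09, 0.40, 0.11 and 0.22 in the same order of libraries. Compact members had 1.09, 1.26, 1.13 and 1.27. In the titration the ratio for all members was 1.05, 1.15 and 1.24 from the low to the high digest. It was 1.06, 1.19 and 1.30 for compact members and 0.879, 0.876 and 0.888 for broad ones, so the compact members' part of all fragments was larger in the stronger digests. The log2 ratio of high to low digest, each scaled to its median window, had a median of 0.24 in members and 0.01 elsewhere. By form it was 0.27 in compact and 0.08 in broad members, and 25.0% of all members were in its top 5%. Between the nanopore digests the median was 0.09 in members and -0.01 elsewhere, with 9.48% of the members in the top 5%. The rule required a fragment number in the high digest, and with windows ranked into 10 classes by that number members were 17.7% of class 10, the most fragments, and 1.20% of class 4, so high-digest coverage is not independent of the choice.

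The nanopore libraries did not show that enrichment. Naked DNA had a median of 191 reads in members and 209 in other windows, a ratio of 0.914, and untreated BG3-c2 replicate 1 had a ratio of 0.907. Broad members were thinly covered in both, at 0.809 and 0.744, and 26.4% of them had less than 0.5 times the coverage of the median window in naked DNA, against 12.0% of compact members and 7.04% of other windows. Relative to naked DNA, the members' log2 coverage excess in the tetranucleosomal libraries was 0.93. That value sets cut-out Illumina libraries against a nanopore library, so platform and size selection are not matched in it. Among nanopore libraries the members' log2 difference was -0.13 in untreated BG3-c2 replicate 1 and -0.14 in naked DNA.

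**Figure D4:**
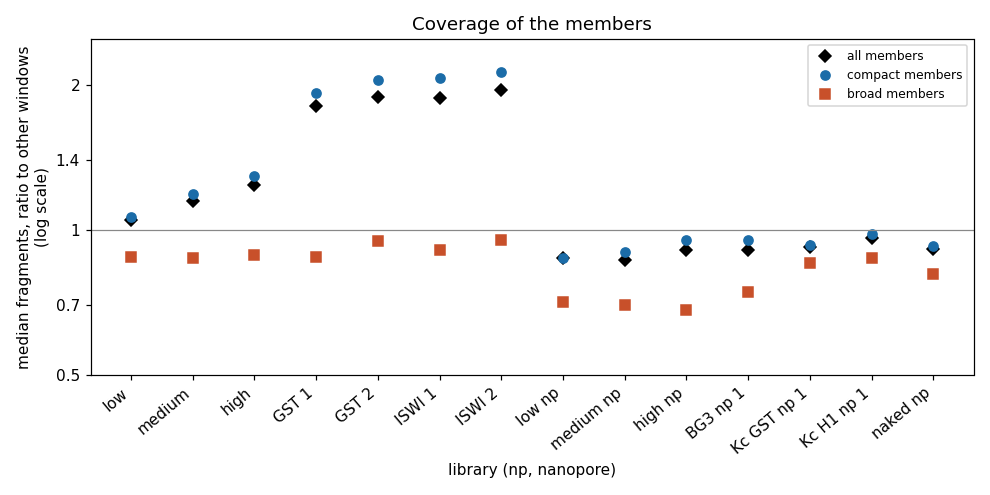
Median number of fragments or reads of any length per window in all, compact and broad members, as a ratio to other windows (y axis, log scale), by library (x axis; np, nanopore). Compact members rise from 1.06 in the low digest to 2.13 in ISWI replicate 2, broad members stay below 1 in every library shown, and the nanopore libraries lie below 1.

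Nanopore reads of 500 to 1000 bp gave a smaller excess, and naked DNA had one too. Untreated BG3-c2 replicate 1 had 692 ± 33.5 bp in members and 684 ± 31.7 bp in other windows, a difference of 7.90 bp over windows with at least 10 reads. Replicate 2 differed by 25.7 bp, but over 14 members and 159 other windows only, and by 15.9 bp with all reads of each class pooled. Kc GST replicate 1 differed by 6.39 bp, Kc H1 replicate 1 by 1.08 bp, and the low, medium and high digests by 7.55, 14.2 and 11.2 bp, the last over only 89 members. In naked DNA members had 686 ± 22.1 bp and other windows 679 ± 18.7 bp, a difference of 7.44 bp. That difference was positive on each of the 5 arms, from 4.53 bp on 3R to 9.02 bp on 2R. It came from compact members, which were 9.15 bp longer, against 0.83 bp for broad members. The excess in untreated BG3-c2 replicate 1 was thus close to that of naked DNA and that of replicate 2 above it; naked DNA is 1 library and the difference was not tested. No naked DNA library was read on the Illumina instrument, so the chromatin excess of 10.2 to 20.6 bp there cannot be set against a like background, and the part of base composition was not tested.

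Across windows, mean length in the high digest went with that of the other Illumina libraries and hardly with that of the nanopore libraries. Pearson's r with the high digest was 0.912 for the medium and 0.719 for the low digest over 11823 windows, 0.712 and 0.400 for GST replicates 1 and 2, and 0.688 and 0.485 for ISWI replicates 1 and 2. It was 0.163 for naked DNA, 0.063 for untreated BG3-c2 replicate 1 and -0.014 for Kc H1 replicate 1. Windows share base composition and mappability between libraries, and nanopore windows hold far fewer reads. The ladder of nanopore maxima gave a repeat length of 184 bp in members and 183 bp in other windows for untreated BG3-c2 replicate 1, 184 and 181 bp for Kc GST replicate 1, and 167 and 165 bp for Kc H1 replicate 1. In the nanopore titration members had 185.8, 179.2 and 180 bp and other windows 185.4, 186.2 and 188 bp in the low, medium and high digests, where the first maximum lay on the limit of its search in at least 1 of the classes. Compact members of untreated BG3-c2 replicate 1 had 182 bp, so these ladders gave no common direction.

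The spacing of fragment starts gave periods whose order between the forms of member varied with library and setting. Over all members the period of the best cosine in the autocorrelation of fragment starts, at distances of 150 to 1200 bp, was 172 bp in members and 178 bp in other windows in both the low and the medium digest, and 171 against 175 bp in the high digest. In GST replicate 1 it was 175 against 177 bp. With each window scaled to its own mean, so that densely covered windows do not dominate, the members had 177, 177, 175 and 177 bp in these 4 libraries and the other windows 180, 180, 176 and 178 bp. Compact members had 175, 175, 173 and 176 bp on that scale and broad members 182, 184, 182 and 187 bp. Broad members were thus above and compact members below the other windows in these 4 libraries. GST replicate 2 did not keep this order, with 174 bp in broad members, 176 bp in compact members and 180 bp in other windows. Kc GST replicate 1 did not keep it either, with 166, 193 and 189 bp. Untreated BG3-c2 replicate 1 (195, 171 and 190 bp) and Kc H1 replicate 1 (246, 152 and 167 bp) did, with 246 bp near the 250 bp limit of the search. ISWI replicate 1 had 250 bp, on that limit, in broad members, 153 bp in compact members and 218 bp in other windows. In ISWI replicate 2 the values were 222, 181 and 222 bp. Naked DNA gave 195, 181 and 250 bp, the last again on the limit. Without the scaling broad members were fitted at 243, 246 and 245 bp in the low, medium and high digests and at 239 bp in GST replicate 1. These periods lie near the upper limit of the search at 250 bp. With right fragment ends GST replicate 1 gave 161 bp in broad and 176 bp in compact members. With fragments of 500 to 1000 bp it gave 154 and 179 bp. The order of all members and other windows also turned on single arms and settings: on 2L members had 199 bp against 178 bp in the low and 179 bp in the medium digest, and with fragments of 500 to 1000 bp GST replicate 1 gave 179 against 178 bp.

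In the remaining tetranucleosomal libraries the period was not well defined. It was 157 against 179 bp in GST replicate 2, 151 against 220 bp in ISWI replicate 1 and 231 against 220 bp in ISWI replicate 2, and several fits by form ended on the 150 or 250 bp limit of the search. Over the 4 libraries the period differed by -20.5 ± 35.1 bp (SD, n = 4; exact sign-flip permutation p = 0.375, adjusted p = 0.438), within the spread between libraries. The amplitude of the cosine, in percent of the mean number of pairs, was lower in members in 4 of 4 libraries: 1.06, 0.735, 0.697 and 1.11% in members and 1.50, 1.67, 0.917 and 1.62% in other windows, in the order GST 1, GST 2, ISWI 1, ISWI 2. The difference was -0.526 ± 0.300 percentage points (SD, n = 4; exact sign-flip permutation p = 0.13, adjusted p = 0.175). It was -0.0865 points with each window scaled to its mean, -0.0527 points without 1 kb bins of over 5 times the median count, -0.0825 points with right fragment ends and -1.70 points with fragments of 500 to 1000 bp. Under the first 3 of these settings ISWI replicate 2 turned positive, at 0.268, 0.430 and 0.142 points. The amplitude was thus lower in 3 of 4 libraries. In naked DNA, without these changes of setting, the amplitude was 0.783% in members and 0.210% in other windows. That member value lay above those of GST replicate 2 and ISWI replicate 1 and below those of GST replicate 1 and ISWI replicate 2. With each window scaled to its mean, members had 0.496% in naked DNA, below the 1.16, 1.49, 0.763 and 1.74% of the 4 libraries. The platforms differ, and the part of nucleosomes in the members' amplitude was not tested.

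**Figure D5:**
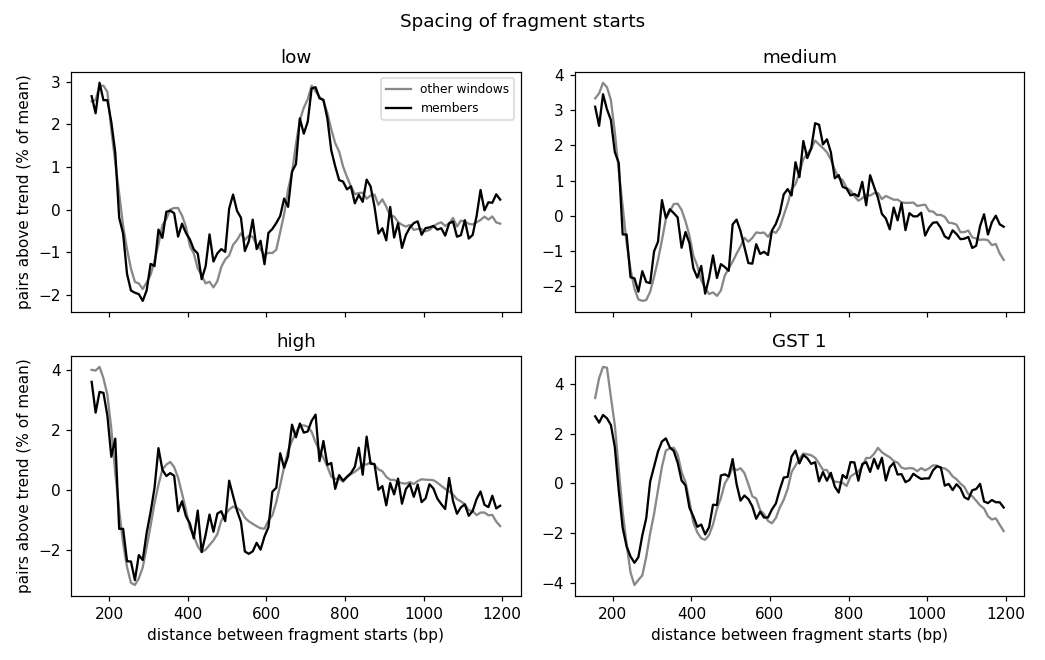
Pairs of fragment starts above a quadratic trend, in percent of the mean number of pairs and smoothed over 11 bp (y axis), against the distance between the starts (x axis, bp) for members and other windows in the low, medium and high digests and GST replicate 1. The waves of members and other windows run close together, with fitted periods of 171 to 175 bp over all members, both forms together, and 175 to 178 bp in other windows.

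Inside a window the members differed in how many places were long. At 1 kb resolution 22.9% of the bins of members in the medium digest, each with at least 30 fragments, were among the longest 5% of all such bins, against 4.06% of the bins of other windows, and 340 of 591 members had 2 or more such bins, 183 had 1 and 68 had none. Long throughout, with all 10 bins, were 8 members, all of them broad. In the high digest the densest 1 kb bin held a median of 16.1% of a member's fragments, the same as in other windows, and over 30% in 20 members (3.38%) against 0.801% of the other windows.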

How the data were processed

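Each deposited file lists 1 genome interval per aligned fragment or read. Alignment used Bowtie 1.1.1 and the files were made with bedtools on build dm3, per the submitters' processing notes, with no role given for nanopore reads. The deposited values are chromosome, start and end, not a count or a signal. Intervals listed more than once were taken once, since PCR copies are not separate molecules. Length is end minus start, and intervals were placed by midpoint in 10 kb windows. Shares and standard errors of a window cover counting error only. A window entered a library's values with at least 30 fragments (nanopore: 10 reads) of 500 to 1000 bp.

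The members, the named windows and the tests were chosen with earlier results of these data known. Windows are not replicates of a condition, so tests ran over libraries: exact sign-flip tests over the 4 tetranucleosomal libraries, an exact permutation test of 2 against 2, and limma 3.58.1 (R 4.3.3; lmFit, eBayes with trend, Benjamini-Hochberg 0.05), checked on simulated data. Windows named in the text are the longest member of each arm, the longest runs (ties kept), the 3 highest and 3 lowest over the 4 libraries, and 3 on each side of the threshold; 2L:4500001-4510000 and other windows of a run are named as parts of it. Maxima were read from length histograms smoothed with an SD of 10 bp between 560 and 800 bp, and ladder maxima each 130 to 230 bp above the last. Periods of 150 to 250 bp were fitted with Python 3.11.15 and NumPy 2.4.6. Alternatives covered fragment minimum, duplicates, arm ends, arms, lags and each library left out; those by form of member, by coverage class and with scaled windows were added after seeing the data. Genes and sequence were not used here, because the annotation at hand is of another release.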

Additional observations from a re-analysis of the deposited data

How the results depend on the processing

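The member excess in length, its share of 800 to 1000 bp fragments, the shift of the tetranucleosomal maximum and the coverage excess kept their direction under the alternatives listed with the tests. Leaving out 1 library at a time gave 18.5 to 19.3 bp, 3.88 to 4.71 percentage points, 15.3 to 16.3 bp and 0.78 to 0.82 (log2). With the low and medium digests added the length excess was 17.3 bp; these belong to the titration that chose the members, so the p over 6 libraries is not used. The coverage excess in fragments of all lengths was -0.11 (log2) for broad members alone. The difference of the excess between ISWI and GST libraries changed sign with all intervals, to -0.17 bp, and ran from -0.67 bp without ISWI replicate 1 to 1.92 bp without ISWI replicate 2; the cause was not tested. The excess period was 2.25 bp with lags of 150 to 800 bp, -39.3 bp with right ends and -4.0 bp with fragments of 500 to 1000 bp, and ran from -31.0 to -4.33 bp with 1 library left out, and the excess amplitude from -0.63 to -0.39 percentage points, with -0.0825 with right ends and -1.70 with fragments of 500 to 1000 bp.

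Windows longer than the median window numbered 140 of only 653 tested, including 64 of 160 members, with at least 100 fragments. When weighted by fragment number they numbered 1050 of 6284, including 300 of 503 members. They ran from 71 to 376 (61 to 140 members) with 1 library left out. Shorter windows numbered 163 (8 members) and 958 (1 member) under the first pair of settings and 0 in each fit without a library. Windows changed after ISWI dsRNA numbered 1 when weighted, 2262 (252 members) without centring, and 0 to 121 (0 to 6 members) with 1 library left out. With the replicate number as a block, 2 windows were called, neither a member, and the difference in excess stayed at 0.62 bp. The labels tie GST and ISWI replicates by a number alone, while both second replicates had the lower share of intervals on the arms and the differences of replicate 1 minus 2 correlated at 0.234 across 6284 windows.

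Depth limits the second replicates, where the median other window held 37 (GST) and 32 (ISWI) fragments of 500 to 1000 bp, and nanopore windows, where untreated BG3-c2 replicate 1 held 21 reads. The 4 tetranucleosomal libraries cannot give a sign-flip p below 0.13.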
